A study of Mus musculus with 36 samples.

Results

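Acute-phase proteins are plasma and secreted proteins whose synthesis changes during inflammation, in the liver above all and also in adipocytes. Their genes respond to interleukin-6-type and interleukin-1-type cytokines through STAT3, NF-kappa-B and the C/EBP factors, and many also respond to glucocorticoids. C/EBP-beta and C/EBP-delta, which act in this response, are also early factors of adipocyte differentiation. The transcripts described here are those of 8 such genes out of 55536 genes listed, chosen by name. They are the siderophore-binding lipocalin *Lcn2*, the extrahepatic serum amyloid A *Saa3*, the protease inhibitor *Serpina3n*, the haemoglobin-binding haptoglobin *Hp*, the orosomucoid *Orm1*, the complement component *C3*, the metalloreductase *Steap4* and the long pentraxin *Ptx3*. The list was drawn up because *Lcn2* was high at day 2 and lower at day 6, so the levels by day are given as a description and without a test.

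RNA was sequenced from 36 libraries of mouse brown pre-adipocytes. They came from 2 clones, 48 and 66, each grown from a single cell after *Rxra* was disrupted with CRISPR/Cas9, and each re-expressing from a retrovirus either *Rxra*WT or *Rxra*SA, in which serine 22 of the nuclear receptor RXRα is replaced by alanine. Each of these 4 cell lines was sampled at confluence (day 0) and at days 2 and 6 of differentiation, with 3 libraries per cell line and day. All groups thus lacked the endogenous receptor and carried a transgene, and no unedited cells were among the 36 libraries. Insulin and triiodothyronine were in the medium throughout, while the glucocorticoid dexamethasone, isobutylmethylxanthine and indomethacin were present for the days leading up to the day 2 harvest only, so that the action of these agents and the stage of differentiation cannot be told apart. The library pool coincided with the clone and cannot be told apart from it. The 3 libraries of each cell line and day are called technical replicates in the deposited description and independent ones in the methods, and p-values measure only the spread between them.

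Total counts per library lay between 11351078 and 24349263. *Rxra* was read in all libraries, between 92.6 and 712 CPM (counts of a gene per 1000000 counts of the TMM-scaled library), in *Rxra*WT and *Rxra*SA cells. The adipocyte transcripts *Fabp4*, *Adipoq*, *Plin1* and *Lpl* were high at day 6. *Ucp1*, a marker of thermogenic adipocytes that is named after its values were seen, had a mean of 0.205 CPM in clone 48 and 0.166 CPM in clone 66 on that day. It belongs to a list of 11 brown adipocyte markers that also holds *Cidea*, *Ppargc1a* and *Prdm16*. The same list holds the adipocyte transcripts *Fabp4*, *Adipoq*, *Plin1* and *Lpl*, and *Pparg*, *Cebpa* and *Slc2a4*. Its sum is therefore no measure of the thermogenic markers alone. Of the 11, 9 in clone 48 and 8 in clone 66 averaged 1 CPM or more at day 6. Summed over 8 pre-adipocyte markers, CPM lay between 530 and 1165 at day 0 and between 37.2 and 130 at day 2. Over the 11 brown adipocyte markers the sum went from between 488 and 1349 CPM at day 0 to between 5787 and 7749 at day 2 and between 9195 and 14512 at day 6. The 8 hepatocyte markers summed to at most 1.31 CPM, with *Fgb* at 0 counts in every library. The 5 endothelial markers summed to at most 1.06 CPM. Of 10 macrophage and leukocyte markers the sum was between 5.14 and 21.3 CPM, most of it *Cd68*, *Cd14* and *Lyz2*, while *Ptprc*, *Adgre1*, *Itgam* and *Tyrobp* each averaged at most 0.0263 CPM in any clone and day.

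Across the 3 days the 8 transcripts followed 4 courses. *Lcn2*, *Saa3* and *Serpina3n* were highest at day 2 and lower by day 6 in both clones. *Hp* was high at day 2 in both clones and lower at day 6 in clone 66 alone. *Orm1*, *C3* and *Steap4* were higher at day 2 than at day 0 and higher still at day 6, *Steap4* from a low level at day 2, and *Ptx3* was highest at day 0 and lower at each later day. For 7 of the 8 genes all 12 day 2 libraries lay above all 12 day 0 libraries, which held for 13.6% of the 16723 genes tested. All 8 genes passed the filter on low counts, but *Lcn2* and *Saa3*, near 0 at day 0, passed it through later days. The share is therefore given as a description. In these bulk samples, fewer cells of a kind and less RNA per cell cannot be told apart.

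**Figure D1:**
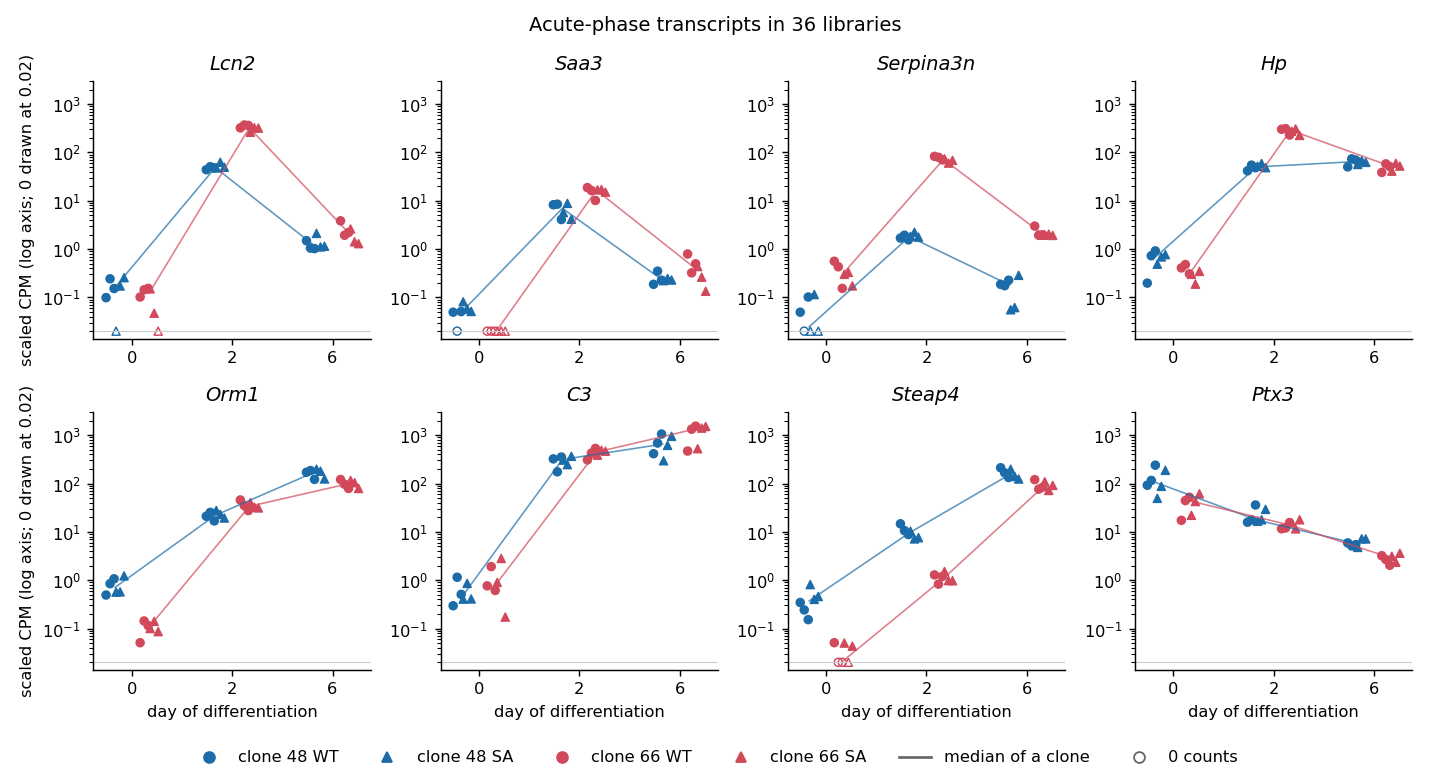
Scaled CPM of the 8 acute-phase transcripts (log axis) by day of differentiation in the 36 libraries, circles for *Rxra*WT and triangles for *Rxra*SA, blue for clone 48 and red for clone 66, with a line through the median of each clone and open symbols at 0.02 for libraries with 0 counts. *Lcn2*, *Saa3* and *Serpina3n* peak at day 2 in both clones, *Orm1*, *C3* and *Steap4* are highest at day 6, *Ptx3* is highest at day 0, and *Hp* of clone 66 stands at 225 to 311 CPM at day 2 against 38.5 to 59.5 CPM at day 6.

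*Lcn2*, on chromosome 2 from 32384633 to 32388252 (minus strand, GRCm38), encodes the secreted lipocalin that withholds iron from bacteria and is also an adipokine. At day 0 it had between 0 and 5 counts per library. At day 2 the 6 libraries of clone 48 ranged from 43.9 to 62.6 CPM with a median of 48.6, and those of clone 66 from 261 to 370 CPM with a median of 322. By day 6 the ranges were 1.02 to 2.11 CPM in clone 48 and 1.29 to 3.84 CPM in clone 66, with medians of 1.13 and 2.07. All 12 day 2 libraries therefore lay above the other 24, without overlap, which was so for 4.9% of genes. The list was drawn up on this course of *Lcn2*, so that share is given for reference and not as a result. At day 2 all 6 libraries of clone 66 lay above all 6 of clone 48. From summed counts, *Lcn2* at day 2 was 312-fold its day 0 level in clone 48 (95% interval 195 to 536) and 3286-fold in clone 66 (1922 to 6173), and day 6 stood at 0.0264 of day 2 in clone 48 and at 0.00667 in clone 66. Even so, day 6 remained above day 0, by 8.24-fold in clone 48 (4.96 to 14.6) and 21.9-fold in clone 66 (12.6 to 41.7). These exact intervals cover counting error only.

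*Saa3* encodes a serum amyloid A that is made outside the liver, including in adipocytes, and lies on chromosome 7 from 46711998 to 46715700 (minus strand). It was nearly absent at day 0, with at most 1 count in any library of clone 48 and 0 counts in all 6 libraries of clone 66. At day 2 it ranged from 4.09 to 8.81 CPM in clone 48 (median 6.98) and from 10.1 to 18.7 CPM in clone 66 (median 16.5). At day 6 the medians were 0.228 and 0.378 CPM, with the highest library at 0.349 CPM in clone 48 and 0.790 CPM in clone 66. As for *Lcn2*, all 12 day 2 libraries lay above the other 24. The day 2 level was 136-fold that of day 0 in clone 48 (58.1 to 421), on 5 counts at day 0, and at least 683-fold higher in clone 66, taking 3 counts over the 6 libraries as the limit that 0 counts allow.

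*Serpina3n* encodes a secreted inhibitor of serine proteases and lies on chromosome 12 from 104406729 to 104414329 (plus strand). In clone 66 it ranged from 60.1 to 82.9 CPM at day 2 (median 71.8), against 0.153 to 0.560 CPM at day 0 and 1.92 to 2.99 CPM at day 6. In clone 48 the same course was run at a lower level, with 0 to 2 counts per library at day 0, 1.55 to 2.22 CPM at day 2 (median 1.80) and 0.0555 to 0.286 CPM at day 6. Within each clone the day 2 libraries did not overlap those of the other days, but the day 2 range of clone 48 overlapped the day 6 range of clone 66. The ratio of day 6 to day 2 was 0.0908 in clone 48 (0.0517 to 0.150) and 0.0292 in clone 66 (0.0256 to 0.0332).

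The bases before the RefSeq start of these 3 genes are shown because they share the day 2 peak. The sequences are from RefSeq (build GRCm38.p6), 5′ to 3′ on the strand of the gene, and cover at most 250 bases before the listed start, less any base annotated as untranslated exon. Capitals mark matches to the searched motifs. The RefSeq start of *Lcn2* lies inside the longer gene of the annotation used for counting, so that its window falls within that gene, and distances are counted from the RefSeq start. The window of *Lcn2* is chr2:32387798-32387989 (minus strand), that of *Saa3* is chr7:46715701-46715926 (minus strand) and that of *Serpina3n* is chr12:104406458-104406707 (plus strand).
Lcn2: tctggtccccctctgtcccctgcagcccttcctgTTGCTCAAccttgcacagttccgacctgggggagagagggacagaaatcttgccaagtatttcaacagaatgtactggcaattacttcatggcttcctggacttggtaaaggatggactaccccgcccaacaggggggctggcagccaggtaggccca
Saa3: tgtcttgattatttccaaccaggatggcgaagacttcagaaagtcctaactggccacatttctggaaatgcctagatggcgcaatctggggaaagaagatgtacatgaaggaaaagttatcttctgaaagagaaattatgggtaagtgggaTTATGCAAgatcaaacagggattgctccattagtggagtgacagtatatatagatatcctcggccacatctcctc
Serpina3n: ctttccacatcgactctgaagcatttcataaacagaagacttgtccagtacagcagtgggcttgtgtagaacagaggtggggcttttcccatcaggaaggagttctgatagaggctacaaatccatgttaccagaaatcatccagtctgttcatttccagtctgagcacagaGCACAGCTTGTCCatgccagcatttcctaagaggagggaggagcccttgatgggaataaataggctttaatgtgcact
Of the 8 genes 6 had an entry, and *Hp* and *Orm1* had none. A C/EBP motif, TTGCNNAA on either strand, was found in 5 of the 6 windows and in 9.56% of all 32851 promoter windows. It lay 216 to 209 bases before the start of *Lcn2*, 99 to 92 before *Saa3*, 45 to 38 before *C3*, 87 to 80 before *Steap4* and 57 to 50 before *Ptx3*, which was highest at day 0. *Serpina3n* held no C/EBP match and instead a glucocorticoid receptor motif, GNACA and TGTNC set 3 bases apart, at 78 to 66 bases, which 0.387% of windows hold. A STAT motif, TTCNNNGAA, was found in *Steap4* alone, at 116 to 108 bases (7.02% of windows), a TATA box, TATAAA, in *Steap4* alone on the minus strand (12.4%), and a kappa-B motif, GGGA and TCC set 3 bases apart, in none of the 6 (3.86%). No match overlapped a match to another motif. A match to these letters is a description of the sequence and not a site of binding.

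*Hp*, on chromosome 8 from 109575128 to 109579172, encodes haptoglobin, which captures free haemoglobin. Its level at day 0 was between 0.188 and 0.916 CPM. At day 2 clone 48 ranged from 41.6 to 58.9 CPM (median 50.05) and clone 66 from 225 to 311 CPM (median 288). By day 6 the ranges of the clones overlapped, at 50.2 to 73.5 CPM in clone 48 (median 64.8) and 38.5 to 59.5 CPM in clone 66 (median 51.5). The course from day 2 to day 6 thus differed between clones, with day 6 at 1.26 of the day 2 level in clone 48 (1.21 to 1.30) and at 0.183 in clone 66 (0.178 to 0.188). The day 2 and day 6 ranges overlapped in clone 48 and did not in clone 66.

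*Orm1* encodes an orosomucoid, an abundant plasma glycoprotein that binds small lipophilic molecules, and lies on chromosome 4 from 63344560 to 63348163. At day 0 it ranged from 0.494 to 1.23 CPM in clone 48 and from 0.0509 to 0.143 CPM in clone 66. At day 2 the ranges were 16.9 to 27.7 CPM (median 22.0) and 27.5 to 45.7 CPM (median 33.7), and at day 6 they were 122 to 198 CPM (median 176) and 79.1 to 122 CPM (median 100). No library of a day overlapped another day, in an upward order that 0.939% of genes showed. Day 6 was 7.40-fold day 2 in clone 48 (7.07 to 7.75) and 2.80-fold in clone 66 (2.703 to 2.91). *Orm1* shares near-identical sequence with *Orm2* and *Orm3*, and read pairs that mapped to several places were left out, so that the division of counts among the 3 is uncertain.

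*Steap4*, on chromosome 5 from 7960457 to 7982213, encodes a metalloreductase of iron and copper that is found in adipocytes. It showed the same upward order without overlap between days. Clone 48 ranged from 0.153 to 0.810 CPM at day 0, from 7.15 to 14.7 CPM at day 2 (median 9.56) and from 124 to 212 CPM at day 6 (median 154). Clone 66 had 0 or 1 count per library at day 0, 0.830 to 1.52 CPM at day 2 (median 1.09) and 72.0 to 120 CPM at day 6 (median 87.7). From day 2 to day 6 the level went up 16.5-fold in clone 48 (15.5 to 17.7) and 81.5-fold in clone 66 (68.3 to 98.1).

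*C3*, on chromosome 17 from 57203970 to 57228136, encodes the central component of complement, which adipocytes secrete. It had 0.173 to 2.82 CPM at day 0 over both clones. At day 2 it ranged from 175 to 366 CPM in clone 48 (median 315) and from 309 to 533 CPM in clone 66 (median 446), and at day 6 from 296 to 1058 CPM (median 653) and from 471 to 1541 CPM (median 1369). The day 2 and day 6 ranges overlapped in both clones. At day 6 the libraries were spread widely, and the same replicate number was lowest, and the same highest, in both genotypes. In clone 48 the *Rxra*WT libraries of replicates 1, 2 and 3 held 415, 689 and 1058 CPM and the *Rxra*SA libraries 296, 616 and 949 CPM. In clone 66 the *Rxra*WT libraries held 471, 1333 and 1541 CPM and the *Rxra*SA libraries 525, 1405 and 1518 CPM. Of the 8 genes *C3* had the largest spread between libraries of a cell line and day, with an SD of 0.81 on the log2 scale, against 0.34 to 0.56 for the others.

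*Ptx3*, on chromosome 3 from 66219910 to 66225805, encodes a soluble pattern-recognition protein that stromal cells release. Alone among the 8, it was highest in the pre-adipocytes of day 0. Clone 48 ranged from 49.4 to 240.1 CPM at day 0 (median 104), 15.9 to 36.01 CPM at day 2 (median 17.7) and 4.78 to 7.19 CPM at day 6 (median 5.68). Clone 66 ranged from 17.4 to 61.3 CPM, 11.5 to 17.8 CPM and 2.04 to 3.61 CPM, with medians of 43.5, 13.7 and 2.91. Within a clone, days 2 and 6 did not overlap, while the day 0 and day 2 ranges of clone 66 overlapped, with the lowest day 0 library at 17.4 and the highest day 2 library at 17.8 CPM. A strict downward order over the 3 days without overlap, which 0.197% of genes showed, was met by none of the 8. The pre-adipocyte markers were also highest at day 0, and their sum was 55.5 to 290 CPM at day 6. Their part in the course of *Ptx3* was not tested.

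To compare levels between genes, counts were also divided by the length of the exons and scaled to a total of 1000000 (TPM, mean ± SD of the 12 libraries of a day). At day 0 *Ptx3* alone was above 2 TPM, at 92.6 ± 74.2. At day 2 *Hp* stood at 240 ± 176, *Lcn2* at 171 ± 134, *C3* at 171 ± 54.0 and *Orm1* at 88.0 ± 25.0 TPM, with *Serpina3n*, *Ptx3*, *Saa3* and *Steap4* at 42.9 ± 43.0, 16.3 ± 7.69, 10.1 ± 4.79 and 4.15 ± 3.74 TPM. The spreads at day 2 hold the difference between clones, and the order of the leading genes was not the same in both. Clone 48 had *C3* at 139 ± 45.1, *Hp* at 74.4 ± 6.18 and *Lcn2* at 45.4 ± 4.76 TPM, and clone 66 had *Hp* at 406 ± 41.5, *Lcn2* at 297 ± 37.7 and *C3* at 203 ± 43.8 TPM (n = 6 libraries each). At day 6 the order was another, led by *C3* at 406 ± 215 and *Orm1* at 387 ± 122 TPM, with *Steap4* at 92.2 ± 33.3, *Hp* at 81.1 ± 17.8 and *Ptx3* at 3.77 ± 1.68. *Lcn2* had dropped to 1.51 ± 0.613, *Serpina3n* to 1.24 ± 1.12 and *Saa3* to 0.280 ± 0.137 TPM. On that day clone 48 had *Orm1* at 490 ± 79.6 and *C3* at 309 ± 145 TPM, and clone 66 had *C3* at 504 ± 239 and *Orm1* at 285 ± 35.5 TPM.

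The 2 clones were compared on each day with the *Rxra*WT and *Rxra*SA libraries that shared a clone, a day and a number summed, since these moved together. At day 2 clone 66 held more of *Serpina3n* (log2 fold change 5.31 ± 0.25 (SE), adjusted p = 3.61e-10), *Lcn2* (2.703 ± 0.23, adjusted p = 4.83e-07), *Hp* (2.45 ± 0.21, adjusted p = 4.83e-07) and *Saa3* (1.26 ± 0.26, adjusted p = 0.00373), and less of *Steap4* (-3.11 ± 0.26, adjusted p = 3.91e-07), by edgeR's quasi-likelihood test with n = 3 summed libraries per clone. *Orm1* was also called higher in clone 66 (0.68 ± 0.22, adjusted p = 0.0472). In all, 6 of the 8 genes passed, 5 higher and 1 lower, where 15.6% of all 19265 genes tested did (8.09% higher and 7.47% lower). *C3* (0.57, 95% interval -0.45 to 1.59) and *Ptx3* (-0.65, -1.45 to 0.15) did not pass. The day 2 libraries of the clones did not overlap for *Lcn2*, *Saa3*, *Hp* and *Serpina3n*, all above in clone 66 (9.47% of genes), and for *Steap4*, below in clone 66 (9.12%). The *Orm1* call was lost with the *Rxra*SA libraries alone (0.58, adjusted p = 0.0876), with library size alone (0.62, adjusted p = 0.0790), in edgeR's version 4 test (0.68, adjusted p = 0.0502) and, at adjusted p = 0.0503 to 0.167 and log2 fold changes of 0.54 to 0.76, without any 1 of 9 summed libraries, namely clone 48 day 0 replicate 2, day 2 replicates 1, 2 and 3 and day 6 replicate 2, and clone 66 day 0 replicate 3, day 2 replicates 1 and 2 and day 6 replicate 2.

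**Figure D2:**
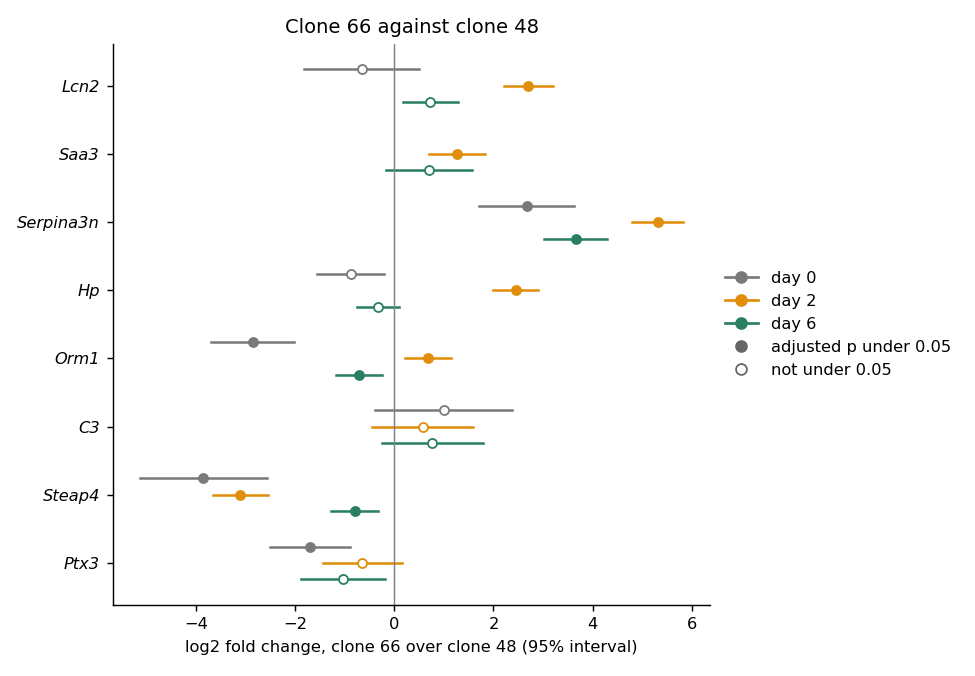
Log2 fold change of clone 66 over clone 48 (points) with its 95% interval (bars) for the 8 genes at days 0, 2 and 6, from edgeR on 18 summed libraries, with filled points where the adjusted p was under 0.05. *Lcn2* and *Hp* stand apart from 0 at day 2 (2.703 and 2.45), *Serpina3n* lies to the right and *Steap4* to the left on all 3 days, and *Saa3* at day 0 is left out because clone 66 had 0 counts.

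At day 0, before differentiation, 4 of the 8 genes differed between the clones, 1 higher and 3 lower in clone 66, where 10.7% of all genes did (5.9% higher and 4.84% lower). *Serpina3n* was higher in clone 66 (2.67 ± 0.46, adjusted p = 0.000715 by edgeR), on 41 counts against 5. *Steap4* (-3.86 ± 0.61, adjusted p = 0.000328), *Orm1* (-2.86 ± 0.40, adjusted p = 0.000102) and *Ptx3* (-1.70 ± 0.38, adjusted p = 0.00648) were lower. *Hp* did not pass (-0.89, adjusted p = 0.0901), but did with the *Rxra*SA libraries alone (-1.24, adjusted p = 0.0258) and without clone 48 day 0 replicate 1 (-1.20, adjusted p = 0.00917). At day 6, 3 of the 8 genes differed, against 12.2% of all genes (6.6% higher and 5.64% lower), with *Serpina3n* higher (3.66 ± 0.30, adjusted p = 5.43e-07) and *Orm1* (-0.71 ± 0.22, adjusted p = 0.0429) and *Steap4* (-0.80 ± 0.22, adjusted p = 0.0250) lower in clone 66. The day 6 ranges of *Orm1* came close without overlapping, both ending at 122 CPM when rounded, and its call was lost with the *Rxra*WT libraries alone (-0.69, adjusted p = 0.0627) and, at adjusted p = 0.0526 to 0.164 and log2 fold changes of -0.71 to -0.58, without clone 48 day 6 replicate 1 or 2, clone 66 day 2 replicate 2, or clone 66 day 6 replicate 2 or 3. That of *Steap4* was lost, at adjusted p = 0.0578 to 0.134 and -0.84 to -0.61, without clone 48 day 6 replicate 1 or 2 or clone 66 day 6 replicate 2 or 3. *Lcn2* at day 6 did not pass (0.73, 95% interval 0.17 to 1.29, adjusted p = 0.0880), but did with the *Rxra*WT libraries alone (1.16, adjusted p = 0.00425) and without clone 48 day 6 replicate 1 (1.02, adjusted p = 0.0383). *Ptx3* at day 6 did not pass either (-1.03, adjusted p = 0.112), although the libraries of the clones did not overlap, and it did with no filter (adjusted p = 0.0217) and with unsummed libraries (adjusted p = 0.0208).

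The change over time itself was then compared between the clones. From day 0 to day 2 the gain was larger in clone 66 than in clone 48 for *Orm1* (difference of log2 fold changes 3.54 ± 0.46, adjusted p = 0.000429 by edgeR), *Lcn2* (3.37 ± 0.61, adjusted p = 0.00762) and *Hp* (3.33 ± 0.38, adjusted p = 0.000123), 3 of the 8 genes against 1.36% of all genes (0.924% higher and 0.436% lower). *Serpina3n* (2.64 ± 0.71, adjusted p = 0.103) did not pass, although it passed on each day, and it did pass by DESeq2 (2.59, adjusted p = 0.0158). From day 2 to day 6, 4 of the 8 passed, against 1.25% of all genes (0.514% higher and 0.732% lower). *Hp* (-2.77 ± 0.29, adjusted p = 0.000168), *Lcn2* (-1.98 ± 0.35, adjusted p = 0.00652) and *Orm1* (-1.39 ± 0.31, adjusted p = 0.0354) were lower at day 6 relative to day 2 in clone 66 than in clone 48, and *Steap4* was higher (2.30 ± 0.34, adjusted p = 0.00154). With a replicate block the calls over all genes went from 262 to 646 and from 240 to 582, and the called genes of the 8 in these contrasts came to 4 and 5. The gene added to day 2 was *Saa3*, which had 0 counts in clone 66 and 5 in clone 48 at day 0. *Serpina3n* passed from day 2 to day 6 with the block (-1.65, adjusted p = 0.0463 by edgeR against 0.0725 without it) and without clone 66 day 0 replicate 3 (adjusted p = 0.0253). It also passed at this step by DESeq2 (-1.65, adjusted p = 0.0108) and by edgeR with unsummed libraries (-1.63, adjusted p = 0.0241). The *Lcn2* call from day 0 to day 2, which rests on 17 counts in clone 48 and 13 in clone 66 at day 0, was lost with the *Rxra*SA libraries alone (3.79, adjusted p = 0.110), without clone 48 day 0 replicate 2 (3.16, adjusted p = 0.0604) and without clone 48 day 0 replicate 3 (3.14, adjusted p = 0.0634). The *Orm1* call from day 2 to day 6 was lost, at adjusted p = 0.0527 to 0.112 and differences of -1.47 to -1.25, without clone 48 day 2 replicate 2 or 3, clone 48 day 6 replicate 1 or 2, clone 66 day 2 replicate 1 or 2, or clone 66 day 6 replicate 2 or 3.

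Whether loss of the serine 22 phosphorylation site altered these transcripts was asked by comparing *Rxra*SA with *Rxra*WT on each day in the model of the study. None of the 8 genes differed at day 0, 2 or 6 at an adjusted p under 0.05, nor did any of the 16723 genes tested (0% called), by edgeR or by DESeq2. At an unadjusted p under 0.05 there were 0 of the 8 genes on each day, and 139, 162 and 125 of all genes at days 0, 2 and 6 (0.831%, 0.969% and 0.747%). The genotype models here hold no replicate term, although same-numbered libraries of the genotypes varied together. That shared variation stays in the error, which makes these tests conservative and their intervals wide. With a replicate block within each day, 1 of all genes was called at day 2, and none of the 8 on any day. *Lcn2* at day 2 held 43.9, 50.6 and 47.9 CPM in the *Rxra*WT libraries of clone 48 against 47.6, 62.6 and 49.3 CPM in the *Rxra*SA libraries, and 322, 370 and 362 CPM against 261, 323 and 319 CPM in clone 66. Its log2 fold change was -0.09 ± 0.30 (95% interval -0.69 to 0.52). Over the 8 genes the log2 fold changes lay between -0.48 and 1.01 at day 0, between -0.31 and 0.09 at day 2 and between -0.62 and 0.21 at day 6. The largest, *Steap4* at day 0 (1.01, -0.69 to 2.71), rests on 3 to 7 counts per library in *Rxra*WT and 7 to 10 in *Rxra*SA of clone 48, and on at most 1 per library in clone 66. *Saa3* at day 6 (-0.62, -1.48 to 0.24) likewise had at most 14 counts per library. The lower end at day 0 moved from -0.48 to -1.16 without clone 48 *Rxra*SA replicate 3 and to -0.92 without clone 66 *Rxra*WT replicate 3 of that day, and the upper end from 1.01 to 1.41 without clone 48 *Rxra*WT replicate 1. At day 2 the intervals of all 8 genes lay between -1.03 and 0.79. The interaction of genotype and time called none of the 8 genes and 0 of all genes for each pair of days. At an unadjusted p under 0.05 it gave 0 of the 8, and 144 genes (0.861%) from day 0 to day 2, 128 (0.765%) from day 0 to day 6 and 153 (0.915%) from day 2 to day 6. A test of whether the clones differed in their response to the genotype called none of the 8 and 0% of 17589 genes on any day, with 0 of the 8 and 305, 242 and 222 genes (1.73%, 1.38% and 1.26%) at an unadjusted p under 0.05 on days 0, 2 and 6. DESeq2 also called 0 in each of these.

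**Figure D3:**
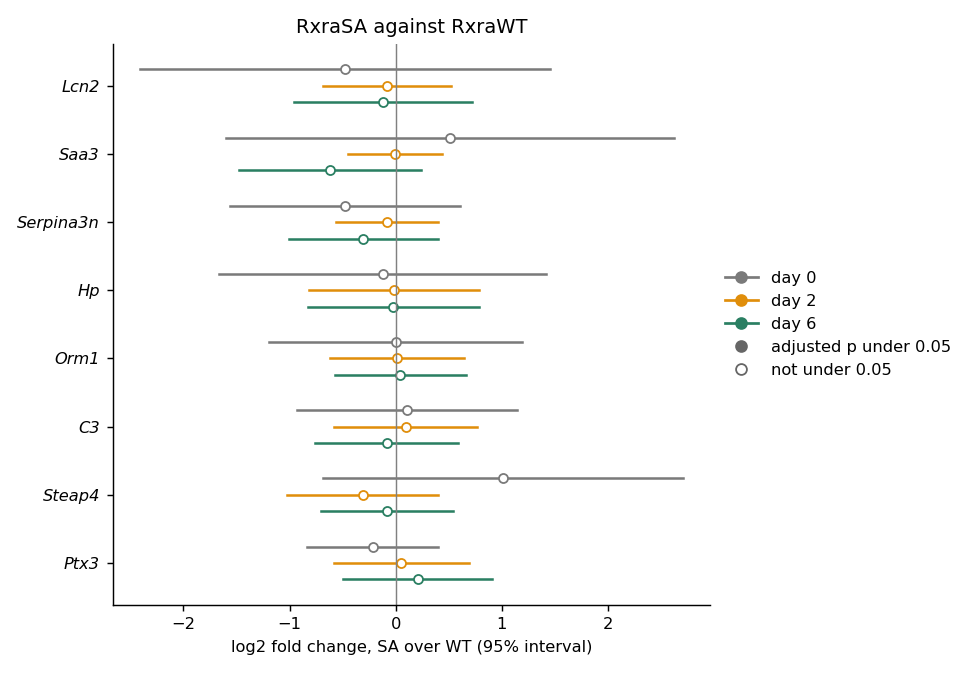
Log2 fold change of *Rxra*SA over *Rxra*WT (points) with its 95% interval (bars) for the 8 genes at days 0, 2 and 6, from edgeR on 36 libraries with the clone as a term. All intervals include 0, and the widest are at day 0, where *Lcn2*, *Saa3*, *Serpina3n* and *Steap4* had few counts.

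The 2 genotypes varied together. Same-numbered *Rxra*WT and *Rxra*SA libraries of a clone and day gave *Ptx3* of clone 48 at day 0 as 92.4, 116 and 240.1 CPM in *Rxra*WT and 49.4, 87.6 and 188 CPM in *Rxra*SA, so that replicate 3 was highest in both. The same held for *C3* at day 6 given above, and for *Orm1* at day 6, where replicate 3 was lowest in both genotypes of both clones. *Rxra*SA was above *Rxra*WT in 7 to 9 of the 18 such pairs for each of the 8 genes.

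**Figure D4:**
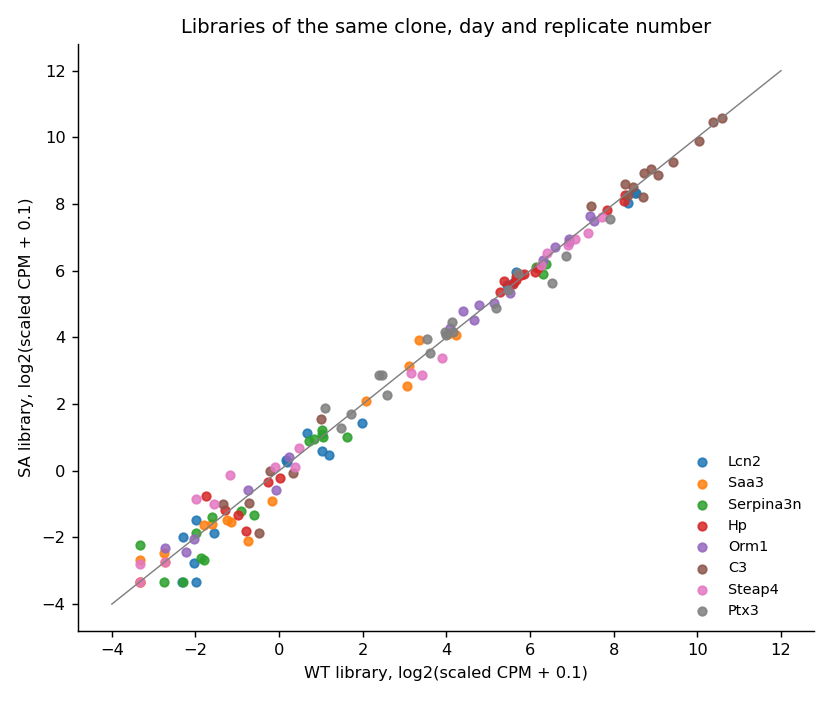
Level of each of the 8 genes in an *Rxra*SA library against its *Rxra*WT counterpart (equal clone, day and number), as log2(scaled CPM + 0.1), with 18 pairs per gene and a line at equal values. Points follow the line over the whole range and scatter most below 1 CPM, where libraries hold few counts.

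The likeness of other genes to *Lcn2* was measured as Pearson's r of log2 CPM over the 36 libraries, which share 12 groups of clone, genotype and day, and is given as a description. Among the 8 genes, *Saa3* was the most like *Lcn2* (r = 0.98), followed by *Serpina3n* (0.88), *Hp* (0.83), *C3* (0.65), *Orm1* (0.54), *Steap4* (0.17) and *Ptx3* (-0.28). Set against 11626 genes with an average log2 CPM of 1 or more, these r took ranks 3, 405, 819, 2105, 2891, 5194 and 7733. Many genes outside the 8 were thus more like *Lcn2* than *Serpina3n* or *Hp* was. Within a day, after taking out the mean of each clone (12 libraries), r with *Lcn2* was -0.51, 0.04 and 0.66 for *Saa3* at days 0, 2 and 6, 0.19, 0.46 and -0.02 for *Serpina3n*, and 0.41, 0.37 and -0.81 for *Hp*, and for the other 4 genes it lay between -0.86 and 0.73. The day 0 values rest on few counts, with at most 5 per library for *Lcn2* and at most 1 for *Saa3*. Among 11626 genes whose average log2 CPM was 1 or more, and apart from the 8, the 5 most like *Lcn2* were *Map7d2* (r = 0.99), a gene of a microtubule-binding family, *Kyat1* (0.98), a kynurenine aminotransferase, *Osgin2* (0.98), *Relt* (0.98), a receptor of the tumour necrosis factor receptor family, and *Plekhf2* (0.98), an endosomal protein. *Map7d2* averaged 0.329, 116 and 1.74 CPM at days 0, 2 and 6, and at day 2 it stood at 58.3 CPM in clone 48 and 174 CPM in clone 66.

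Other acute-phase genes were read from a list of 25, of which 15 could be tested. From day 0 to day 2, 12 rose and 2 fell, where 63.8% of all genes were called, 30.8% higher and 33% lower. From day 2 to day 6, 8 rose and 5 fell, where 49.8% of all genes were called, 25.9% higher and 24% lower. The median log2 fold change of the list was 2.40 to day 2 (2.30 with *Saa4*, at 0 counts in a group, set to its limit) and 0.92 from day 2 to day 6, with medians of -0.03 and 0.00 over all genes. *Saa4*, *Il1rn*, *Lbp*, *Lrg1* and *C4b* averaged only 0.00398 to 0.123 CPM at day 0, from where a fall can hardly be seen. Such genes pass the filter on low counts through later days. At day 2 *Saa4* and *Il1rn* still averaged only 0.218 and 0.177 CPM, so that a later fall could hardly be seen either. The calls and the medians of both steps are therefore given as a description. *Fga*, the alpha chain of fibrinogen, also peaked at day 2, rising by 7.27 ± 0.23 on the log2 scale and then falling by 7.35 ± 0.23 as the average of the clones. From summed counts its day 2 level was 25.8-fold that of day 0 in clone 48 (20.5 to 33.1) and 939-fold in clone 66 (494 to 2054), and in clone 48 it ended below its day 0 level, at 5 counts against 74. *Fga* averaged 18.2 CPM in clone 48 and 64.4 CPM in clone 66 at day 2, while *Fgb* and *Fgg*, the other chains, were at or near 0 throughout. *Orm3* and *Orm2* rose to day 2 by 5.62 ± 0.25 and 4.42 ± 0.21. As the average of the clones they then fell, by 2.48 ± 0.21 and 0.52 ± 0.16. *Orm3* went from 52.3 to 35.4 CPM in clone 48 and from 102 to 4.98 CPM in clone 66, and *Orm2* from 8.19 to 8.56 CPM in clone 48 and from 8.30 to 3.99 CPM in clone 66. *Lrg1*, a leucine-rich glycoprotein, rose at both steps (4.76 ± 0.39 and 2.18 ± 0.26). *C4b*, a complement component, rose by 3.57 ± 0.54 and then by 3.06 ± 0.38, and the copper-binding ceruloplasmin *Cp* fell by 1.10 ± 0.14 to day 2 and rose by 3.47 ± 0.15 to day 6. The hepatic serum amyloids *Saa1* and *Saa2* averaged at most 0.164 CPM, and *Crp* was at 0.

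**Figure D5:**
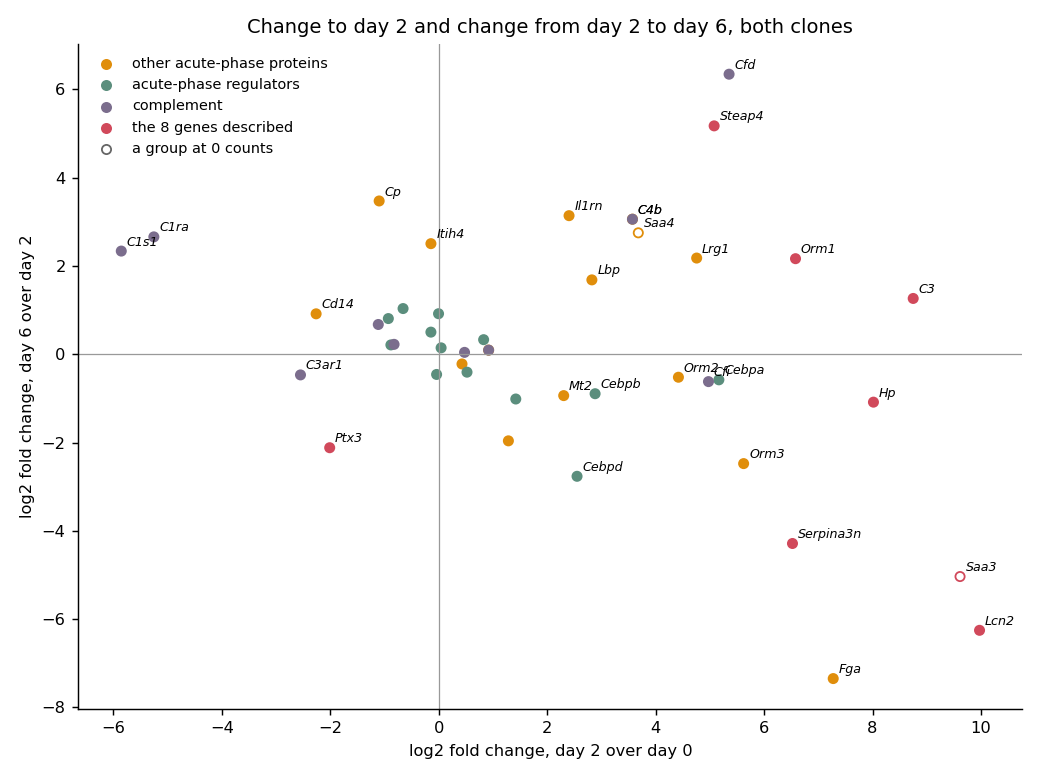
Log2 fold change from day 0 to day 2 (horizontal axis) and from day 2 to day 6 (vertical axis) for the 8 genes and for the tested genes of 3 related lists, each averaged over the clones, with open points for genes that had a group at 0 counts. *Lcn2*, *Saa3* and *Serpina3n* lie at the lower right with *Fga* and *Orm3*, *Orm1*, *C3* and *Steap4* at the upper right with *Cfd*, *C4b* and *Lrg1*, and *Ptx3* at the lower left.

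The gene family of *Serpina3n* lies in a cluster of near-identical genes, so the division of reads among them is uncertain. Of 10 relatives listed, 3 passed the filter on low counts, *Serpina3k* and *Serpina3m* through their day 2 counts, so that no count of calls is given for them. *Serpina3k* averaged 58.0 CPM in clone 66 and 0.441 CPM in clone 48 at day 2, on 0 counts in either clone at day 0, which made it at least 2521-fold higher in clone 66 and at least 15.7-fold higher in clone 48. *Serpina3m* averaged 49.9 and 1.58 CPM. At day 6 *Serpina3k* was read with 1 count in each clone and *Serpina3m* with 18 in clone 66 and 1 in clone 48, while *Serpina3c* averaged 2.69 CPM at day 2 and 11.9 CPM at day 6 in clone 66. The clone difference at day 2 was 7.02 ± 0.43 for *Serpina3k* and 4.99 ± 0.32 for *Serpina3m* on the log2 scale, beside 5.31 for *Serpina3n*. Of 7 negative acute-phase genes, which go down in inflammation, 3 could be tested, *Rbp4*, *Trf* and *Apoa1*, and none passed to day 2, with 0 at an unadjusted p under 0.05 and 0 by DESeq2. At day 0 *Rbp4*, *Trf* and *Apoa1* averaged 0, 0.0114 and 0.0551 CPM, from where a fall can hardly be seen. *Rbp4* and *Trf* passed the filter through their day 6 counts, and all 3 remained low, with means of at most 3.54 CPM on that day. From day 2 to day 6 all 3 were called higher, beside 25.9% of all genes, which for *Rbp4* and *Trf* the filter favoured. These calls are given as a description.

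Regulators of the response were read from a list of 13, all tested. To day 2, 6 rose and 3 fell, and from day 2 to day 6, 4 rose and 6 fell, beside 63.8% and 49.8% of all genes called. The 3 that fell became 6 with library size alone, and the 4 that rose became 7 without clone 66 day 6 replicate 1. *Cebpd* rose by 2.55 ± 0.11 to day 2 and then fell by 2.76 ± 0.11, going from 10.1 to 40.6 to 7.59 CPM in clone 48 and from 8.15 to 66.7 to 7.92 CPM in clone 66. *Cebpb* rose by 2.88 ± 0.16 and fell by 0.89 ± 0.15. *Cebpa*, which is also an adipocyte gene, rose by 5.17 ± 0.16, and *Nfkbia*, the inhibitor of NF-kappa-B that this factor induces, rose by 1.42 ± 0.12 and fell by 1.01 ± 0.12. The genes of NF-kappa-B itself had lower means at day 2 than at day 0. *Nfkb1* went from 101.6 to 54.02 CPM and *Nfkb2* from 56.66 to 27.86 CPM. *Relb* went from 17.78 to 11.02 CPM and *Rela* from 46.99 to 42.07 CPM. *Tnfaip3* of the same list went up, from 11.09 to 19.53 CPM. The activity of NF-kappa-B was not tested. *Stat3* rose by 0.52 ± 0.14 to day 2 as the average of the clones, from a mean of 94.7 to 186 CPM in clone 66 and from 86.3 to 87.4 CPM in clone 48, where the day 0 and day 2 ranges overlapped. It was higher in clone 66 on that day by 1.10 ± 0.20. *Cebpd* was also higher in clone 66 at day 2, by 0.72 ± 0.14. *Socs3*, a target and inhibitor of STAT3, did not pass to day 2 (0.00 ± 0.11) and rose by 0.92 ± 0.11 to day 6. *Nr3c1*, the glucocorticoid receptor, did not pass at either step (0.04 ± 0.10 and 0.15 ± 0.10), and was higher in clone 66 at day 2 by 0.83 ± 0.15. Its libraries were spread about as widely on the other days, at 195 to 423 CPM on day 0, 192 to 422 on day 2 and 243 to 497 on day 6. The day 2 difference is thus not given as particular to that day.

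Of 9 cytokines that can drive the response, 4 could be tested. *Il1b* was at 0 counts, and *Tnf*, *Osm* and *Lif* averaged under 0.1 CPM in every clone and day. To day 2, 0 rose and 3 fell, with 0 called higher by DESeq2, and from day 2 to day 6, 1 rose and 2 fell, beside the shares of all genes given above. *Clcf1*, a cytokine of the interleukin-6 family, fell by 1.01 ± 0.11 and then by 0.50 ± 0.11, with means of 17.4 and 8.43 CPM at days 0 and 2 in clone 48 and 18.5 and 9.03 CPM in clone 66. *Ctf1*, of the same family, fell by 0.60 ± 0.12 to day 2 and rose by 0.66 ± 0.12 to day 6, with means by clone and day of 3.35 to 7.20 CPM. *Il6* averaged between 0.213 and 2.80 CPM, did not pass to day 2 (0.18 ± 0.25), with medians of 2.96 and 1.41 CPM at days 0 and 2 in clone 48 and 0.948 and 2.01 CPM in clone 66, and fell by 2.73 ± 0.31 to day 6. Of 10 receptor genes, all tested, 4 rose and 5 fell to day 2, and 1 rose and 6 fell from day 2 to day 6, where 30.8% and 33%, and 25.9% and 24%, of all genes did. The 1 that rose was lost with *Rxra*WT libraries alone and without clone 48 day 2 replicate 1 or 2, clone 48 day 6 replicate 2 or 3, clone 66 day 2 replicate 1 or 2, or clone 66 day 6 replicate 2 or 3. The oncostatin M receptor *Osmr* fell by 1.97 ± 0.15 and then by 0.61 ± 0.15, the interleukin-1 receptor *Il1r1* by 1.03 ± 0.13 and 0.49 ± 0.13, and the shared subunit *Il6st* by 0.96 ± 0.18 and 0.59 ± 0.18. The interleukin-6 receptor *Il6ra* rose by 1.52 ± 0.30 to day 2. *Tnfrsf1b* and *Il1rap* peaked at day 2, rising by 1.43 ± 0.18 and 1.28 ± 0.10 and falling by 1.89 ± 0.19 and 1.29 ± 0.10.

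Complement genes beside *C3* were read from a list of 19, of which 10 could be tested. To day 2, 5 rose and 5 fell, where 63.8% of all genes were called, 30.8% higher and 33% lower. Among those tested, *C4b* stood at a mean of 0.123 CPM at day 0, from where a fall can hardly be seen. From day 2 to day 6, 5 rose and 0 fell, with 0 falling by DESeq2 or at an unadjusted p under 0.05. Over both directions the share called at this step was close to the 49.8% of all genes, of which 25.9% were higher and 24% lower. *Cfd*, the adipocyte-secreted factor D that acts on the *C3* pathway, rose by 5.35 ± 0.27 and then by 6.35 ± 0.25, to a mean of 1611 CPM in clone 48 and 922 CPM in clone 66. The classical pathway proteases *C1s1* and *C1ra* fell by 5.86 ± 0.28 and 5.25 ± 0.23 to day 2 and rose by 2.34 ± 0.25 and 2.66 ± 0.21 to day 6. With a filter of 1 CPM, under which fewer genes are tested, 2 in place of 5 complement genes rose to day 2, and 3 did with library size alone or without clone 48 day 2 replicate 3.

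Iron handling was read because *Lcn2* binds iron-loaded siderophores and *Steap4* reduces iron. Of 14 genes, 11 could be tested, with 4 rising and 2 falling to day 2 and 3 rising and 4 falling from day 2 to day 6, beside 63.8% and 49.8% of all genes called. The 2 that fell to day 2 became 1 with RLE scaling, no filter or *Rxra*WT alone, and without any summed library but clone 48 day 2 replicate 1. The *Lcn2* receptors *Slc22a17* and *Lrp2* averaged at most 0.213 CPM. The iron exporter *Slc40a1* fell by 3.74 ± 0.22 to day 2 and rose by 3.55 ± 0.22 to day 6, a course opposite to that of *Lcn2*, while the transferrin receptor *Tfrc* rose by 2.83 ± 0.20 and fell by 1.47 ± 0.19. *Aco1*, an aconitase that also binds iron-responsive elements, rose by 2.94 ± 0.11, and haem oxygenase *Hmox1* rose by 1.72 ± 0.31 from day 2 to day 6. The other Steap reductases did not share the course of *Steap4*. Of the 3, 0 rose and 2 fell to day 2, with *Steap3* falling by 2.39 ± 0.25 and *Steap2* by 1.72 ± 0.12. From day 2 to day 6, *Steap3* rose by 1.96 ± 0.25, and *Steap2* and *Steap1* fell by 1.03 ± 0.12 and 1.66 ± 0.19.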

How the data were processed

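Gene counts were deposited for 36 libraries of total RNA. The authors aligned paired-end reads to the GENCODE M21 primary assembly (GRCm38, named mm10 in the submitters' notes) with STAR 2.7.0d and counted them on exons with featureCounts 1.6.2, and the deposited counts were neither normalised nor filtered. Strand was not used, and read pairs that mapped to several places or genes were left out, so near-identical genes are uncertain. None of the 8 genes shared exon bases with another gene in this annotation. The authors' own tests used edgeR 3.24.3.

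Here genes were kept by filterByExpr, scaled by TMM and tested with edgeR 4.0.16 (quasi-likelihood test in its earlier form, R 4.3.3) and called at a Benjamini-Hochberg adjusted p under 0.05. Genotypes were compared in 36 libraries with a term for every pairing of genotype with day plus a clone term, as in the study (16723 genes), and with 12 separate groups for the difference between clones (17589 genes). Days and clones were compared after summing the *Rxra*WT and *Rxra*SA libraries of the same clone, day and number (18 sums of 28730404 to 46024033 counts, 19265 genes). Such libraries deviated together, with r of 0.176 to 0.93 (median 0.827, 18 pairs, 9381 genes), all over 0.1. In every pair but clone 48 day 6 replicate 2 (0.471 against 0.488), this r exceeded the highest r with a library of another number. Other numbers reached up to 0.624, in clone 66 at day 6. The same-numbered libraries were therefore treated as pairs. Replicate libraries differed by more than sampling noise (chi-square over its degrees of freedom 12.0 or more), so none was counted as a duplicate. CPM was taken on the TMM-scaled total. TPM used the exon lengths in the files. Ratios of summed counts have exact 95% intervals, and 0 counts were set to 3 per group for a limit. The prior count for log2 CPM was 2. Alternatives were DESeq2-type (RLE) scaling or none, testing all genes or those reaching 1 CPM in 6 libraries (3 sums), edgeR's version 4 test, DESeq2 1.42.0, replicate blocks, unsummed libraries, *Rxra*WT or *Rxra*SA libraries alone, a prior count of 0.5 and the omission of each library in turn. Fits were tested on simulated counts. Genes named beside the 8 were, in each list, up to 4 with the largest change among those called by day whose average log2 CPM reached 1, the 5 most like *Lcn2*, and a fixed set of regulators, cytokines and receptors. Genes given by level alone were named after their values were seen. A complement gene is not reported here and was left out of its list. The 8 genes and the lists were chosen with earlier results of these data known. Figures were drawn with matplotlib 3.10.9 (python 3.11.15, pandas 2.3.3, numpy 2.4.6, scipy 1.17.1).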

Additional observations from a re-analysis of the deposited data

Results flagged for a closer look

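The change between days differed between the clones by a test of the difference itself for 4 of the 8 genes, beside 1.36% of all genes to day 2 and 1.25% from day 2 to day 6. As clone 66 minus clone 48, the log2 difference from day 0 to day 2 was 3.37 for *Lcn2*, 3.54 for *Orm1* and 3.33 for *Hp*, and from day 2 to day 6 it was -1.98 for *Lcn2*, -1.39 for *Orm1*, -2.77 for *Hp* and 2.30 for *Steap4*. The *Lcn2* call to day 2 was lost with the *Rxra*SA libraries alone (3.79, adjusted p = 0.110 by edgeR) and without clone 48 day 0 replicate 2 (3.16) or 3 (3.14), and the *Orm1* call from day 2 to day 6 without any 1 of 8 summed libraries (-1.47 to -1.25), named with the result above. Clone and library pool cannot be told apart.

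Among 47 sets of 6 libraries (8 genes, 2 clones, 3 days, less *Saa3* of clone 66 at day 0, which was at 0 throughout), a library stood far from the others in 3, judged by its gap to the nearest library over the whole range (limit 0.625). For 6 independent values chance gives about 1 in 20 sets. Same-numbered libraries varied together here, so that rate is only a rough guide. The highest ratio of gap to range was in *Serpina3n* of clone 66 at day 6, where *Rxra*WT replicate 1 had 2.99 CPM and the others 1.92 to 2.04 (0.862). *Saa3* of clone 66 at day 2 had its lowest library in *Rxra*WT replicate 3 at 10.1 CPM (0.650). *Saa3* of clone 48 at day 0 had 0 counts in *Rxra*WT replicate 2 and 1 count in each of the others (0.672).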

How the results depend on the processing

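The 0 calls among the 8 genes for the genotype, its interaction with time and its difference between clones held under every alternative run. Over all genes a replicate block within each day gave 1 call at day 2 for the genotype, and 4, 1 and 3 calls at days 0, 2 and 6 for its difference between clones, which the replicate block across days put at 2 at day 0 and the absence of a filter at 5. For the clone by time difference the calls over all genes from day 0 to 2 (262) and from day 2 to 6 (240) became 646 and 582 with a replicate block, 549 and 507 with DESeq2, 1094 and 1022 with the 36 libraries not summed, and 163 to 379 and 146 to 493 without 1 summed library (lowest without clone 66 day 2 replicate 3 and clone 48 day 6 replicate 2, highest from day 2 to 6 without clone 48 day 2 replicate 1), and 151 from day 2 to 6 with the *Rxra*SA libraries alone. Unsummed, 3997, 5027 and 4394 genes differed between clones at days 0, 2 and 6, and without 1 summed library 1469 (without clone 48 day 6 replicate 2) to 2437 did at day 6.

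Of the 8 genes, 5 in place of 3 were called lower in clone 66 at day 0 with unsummed libraries, 2 in place of 1 higher at day 6 with unsummed libraries or *Rxra*WT alone, and 5 in place of 3 gained more to day 2 by DESeq2. The genes added were *Hp* and *Saa3* at day 0, and *Serpina3n* and *Saa3* by DESeq2. The *Saa3* calls rest on 0 counts in clone 66 and 5 in clone 48 at day 0. At day 6, 1 was lower with *Rxra*WT alone, and without 1 summed library 0 to 2 were lower and 1 to 2 higher. The sign of *C3* in the clone by time difference, which was not called, turned without clone 66 day 0 replicate 2 (-0.99 to 0.55 over all omissions to day 2), and without clone 48 day 6 replicate 1 or clone 66 day 6 replicate 3 (-0.12 to 0.62 from day 2 to day 6).

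In the lists by day, iron genes lower at day 2 were 1 in place of 2 with RLE size factors, *Rxra*WT alone or no filter (1 to 2 without 1 library), complement genes higher at day 2 were 2 in place of 5 with the filter of 1 CPM and 3 with library size alone (3 to 5 without 1 library), and regulators lower at day 2 were 6 with library size alone. Negative acute-phase genes higher from day 2 to day 6 were 1 in place of 3 with the filter of 1 CPM, and with no filter 1 was higher to day 2 and 1 lower after it (0 to 1 each without 1 library). Receptors higher at day 6 than at day 2 were 0 with *Rxra*WT alone (0 to 1 without 1 library), regulators higher were 3 to 7 without 1 library (7 without clone 66 day 6 replicate 1), and Steap genes higher at day 2 were 1 with unsummed libraries (0 to 1 without 1 library). The causes were not tested. A replicate block changed no other call described. Below about 1 CPM the few counts limit what can be seen, at day 0 above all.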
